A study of Mus musculus with 24 samples.

Results

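The 9 genes Cux1, Cux2, Rorb, Fezf2, Bcl11b, Tbr1, Foxp2, Tle4 and Sox5 encode transcription factors and a cofactor by which cortical neurons of different layers are commonly told apart. They were chosen by symbol among the 54235 features of single-cell 3' RNA libraries made from 2 brain regions of the mouse, primary motor cortex and dorsal striatum. Motor cortex came from Fos-CreER::Ai9 mice and dorsal striatum from Arc-CreER::Ai9 mice, so region and genotype cannot be told apart. In both lines an activity-dependent promoter drives a tamoxifen-inducible Cre, and Ai9 is a tdTomato reporter that Cre switches on. All mice, controls included, received 4-hydroxytamoxifen (4-OHT). Early mice had trained for 2 days and late mice for 8 days on a task of reaching with a forelimb, and control mice had not trained. Each library held 1 hemisphere pooled from 2 mice, and a pool of mice is the replicate throughout, with 2 pools for each region and stage (12 in all). The labels give no age or strain background. Because tissue was dissociated to cells and all cells were sequenced, the values below are not limited to neurons that carried the reporter.

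Excitatory neurons of the cortex are laid down in layers, and each layer sends its axons to a different set of targets. Upper-layer neurons and those of layer 4 mostly connect cortical areas (intratelencephalic neurons), deep-layer neurons also project to the spinal cord, brainstem or thalamus, and a separate deep class projects only nearby. During development factors of the deep and upper layers repress each other, and many stay on in the adult, where they serve as markers. In the striatum, whose projection neurons are the GABAergic spiny neurons of the direct (Drd1) and indirect (Drd2) pathways, several of the same factors have other roles.

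Of the upper-layer factors, Cux1 (ENSMUSG00000029705; GRCm38 chromosome 5, 136248135 to 136567490, minus strand) and Cux2 (ENSMUSG00000042589; chromosome 5, 121856366 to 122050102, minus) encode related cut-homeodomain proteins. Rorb (ENSMUSG00000036192; chromosome 19, 18930605 to 19111196, minus) encodes the nuclear receptor RORβ, a marker of layer 4 neurons. Of the deep-layer factors, Fezf2 (ENSMUSG00000021743; chromosome 14, 12342094 to 12348189, minus) encodes a zinc-finger protein that specifies subcerebral projection neurons. Bcl11b (ENSMUSG00000048251; chromosome 12, 107910403 to 108003602, minus), also called Ctip2, encodes a zinc-finger protein that acts downstream of Fezf2 and is also needed in striatal spiny neurons. Tbr1 (ENSMUSG00000035033; chromosome 2, 61802930 to 61814114, plus) encodes a T-box protein of early-born and layer 6 neurons. Foxp2 (ENSMUSG00000029563; chromosome 6, 14901349 to 15441977, plus) encodes a forkhead protein of layer 6 corticothalamic neurons and of spiny neurons. Tle4 (ENSMUSG00000024642; chromosome 19, 14448150 to 14598051, minus) encodes a Groucho-family corepressor found in corticothalamic neurons. Sox5 (ENSMUSG00000041540; chromosome 6, 143828425 to 144781977, minus) encodes an SRY-box protein that controls the sequence in which deep-layer neurons arise. All 9 are protein-coding. An exon of Cux1 overlaps Gm16599 and one of Sox5 overlaps Sox5os1 on the other strand. How the authors' counting treated strand is not given in the sources used here.

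Rorb and Fezf2 stood on opposite sides of the co-detection pattern described below and were both also found in astrocyte-like cells, so their promoters are shown. RefSeq (GRCm38.p6) gave 11 windows, each from 250 bases before to 50 bases after a start, for 8 of the 9 genes, and none was matched for Foxp2. The Rorb window is the first of 2 (chr19:19111147-19111446, minus strand) and the Fezf2 window the only one (chr14:12345816-12346115, minus strand). Capitals mark the GC box GGGCGG on either strand.
Rorb: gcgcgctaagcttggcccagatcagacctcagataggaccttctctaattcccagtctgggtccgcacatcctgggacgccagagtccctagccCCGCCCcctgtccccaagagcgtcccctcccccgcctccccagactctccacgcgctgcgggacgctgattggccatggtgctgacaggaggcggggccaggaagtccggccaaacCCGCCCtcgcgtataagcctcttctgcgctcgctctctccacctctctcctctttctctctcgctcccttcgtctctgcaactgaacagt
Fezf2: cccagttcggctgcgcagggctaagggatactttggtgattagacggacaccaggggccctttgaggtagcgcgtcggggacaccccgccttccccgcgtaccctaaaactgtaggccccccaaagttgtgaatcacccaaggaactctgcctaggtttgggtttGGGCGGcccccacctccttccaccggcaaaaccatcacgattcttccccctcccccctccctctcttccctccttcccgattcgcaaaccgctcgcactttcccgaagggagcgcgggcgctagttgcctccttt
The Rorb window held 2 GC boxes at a GC content of 63.7%, and the Fezf2 window 1 at 61.3%. The median GC content of all windows in the table was 52.7%. A GC box stood in at least 1 window of 4 of the 8 genes and in 35.7% of all 32851 windows. The letters TATAAA stood in a window of 2 of the 8 genes and in 13.6% of all windows. CANNTG, the E-box, stood in windows of 4 of the 8 genes and in 72.3% of all windows. A gene had 1 or 2 windows, so these counts of genes cannot be compared directly with the shares of windows. These motifs were searched on both strands, and a match is only a match of letters.

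Matrices of 23 of the 24 libraries were analysed, while the right side of control replicate 1 in dorsal striatum was not analysed here. The libraries held 541 to 10030 barcodes and 5260446 to 30470621 UMIs (molecules counted once each), with 47985 motor cortex and 50627 striatal cells kept after filtering and removal of presumed doublets. By how often libraries had barcodes in common, pools were divided into 2 classes, a number set in advance. The rates that follow are those used for the division. Pairs of libraries within class A shared 1.306 barcodes per 1e6 possible pairs, within class B 0.2614, and between the classes 0.02398. The 2 hemispheres of a pool shared at most 120 barcodes (1.399% of the smaller library). In both regions replicate 1 of control and of late belonged to class A (4 pools) and the remaining 8 pools to class B, so no early pool was in class A.

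Glutamatergic neurons of motor cortex were gated as cells with at least 1 UMI of Slc17a7, the vesicular glutamate transporter of cortical excitatory neurons, and no UMI of Gad1 or Gad2, the GABA-synthesising enzymes. The gate took 17457 cells, 36.4% of motor cortex cells, with 2100 to 3480 per pool and 229 to 2157 per library, the lowest in the left hemisphere of control replicate 1. Median depth was 4583 to 13710 UMIs per neuron by library. All 8 markers of the glutamatergic list, which includes the gate gene Slc17a7, stood at 10 CPM (UMIs of the gene per 1e6 UMIs) or more in the summed cells. The list summed to 8191 to 11380 CPM by pool. Of the GABAergic list 1 of 9 reached 10 CPM (sum 26.8 to 50.6 CPM), with Lhx6 under 1 CPM in all pools. Gad1 and Gad2, also on that list, were absent because the gate excludes them. Markers of other cells were present at a low level: the microglial list summed to 73.6 to 353 CPM (5 of 7 markers at 10 CPM or more) and the astrocyte list to 685 to 1171 CPM (2 of 7). Clusters built without the 9 genes placed 16525 of the gated cells (94.7%) among glutamatergic neuron-like cells and 859 among non-neuronal clusters, where the median was 1 UMI of Slc17a7 per cell, against 7 in the glutamatergic clusters.

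Apart from Tbr1, the 9 genes were detected together in 2 groups. Neurons were thinned to 2000 UMIs each, which left 16306 (1151 shallower ones were left out), and for each pair the number of neurons with both genes was divided by the number that their separate shares in the pool would give. Of the 36 pairs, 16 had a ratio above 1 in all 6 pools, 16 a ratio below 1 in all 6, and 4, each with Tbr1, lay on both sides. Pairs of other genes were not counted. All 3 pairs among Cux1, Cux2 and Rorb were above 1. Cux1 and Rorb had a mean ratio of 2.24 ± 0.246 (SD, n = 6 pools), from 1.96 to 2.69, with 761 neurons carrying both. Cux1 and Cux2 had 2.15 ± 0.338 (571 neurons) and Cux2 and Rorb 2.03 ± 0.228 (580 neurons). The pairs among Fezf2, Bcl11b, Foxp2 and Tle4 were above 1 in all pools as well. Bcl11b and Foxp2 stood highest at 2.27 ± 0.215 (687 neurons), followed by Foxp2 and Tle4 at 2.16 ± 0.200 (717 neurons) and Fezf2 and Tle4 at 2.08 ± 0.179 (670 neurons). Their ranges over pools overlapped. Bcl11b and Tle4, found together in 1133 neurons, had 1.93 ± 0.180.

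Across the groups the ratios were low. Cux2 and Foxp2 were found together in 5 neurons, at a ratio of 0.025 ± 0.028, and in 3 of the 6 pools in none. Cux2 and Fezf2 had 0.060 ± 0.031 (12 neurons) and Cux2 and Bcl11b 0.102 ± 0.0551 (34 neurons). Rorb had 0.147 ± 0.0566 with Foxp2, 0.181 ± 0.0693 with Bcl11b and 0.353 ± 0.119 with Fezf2. Among neurons with a Cux2 UMI, 30.1% (26.9% to 32.8% over pools) also had Rorb, against 12.9% (11.7% to 15.3%) of those without Cux2, and 0.589% had Fezf2 against 11.3%. Tbr1 separated the groups least. Its ratio was 0.874 ± 0.104 with Cux1, below 1 in all pools, but with Cux2 (0.819 ± 0.128), Rorb (0.964 ± 0.102), Fezf2 (1.12 ± 0.140) and Sox5 (1.08 ± 0.121) it lay on both sides of 1. Tbr1 was above 1 in every pool with Foxp2 (1.51 ± 0.153), Tle4 (1.275 ± 0.0996) and Bcl11b (1.205 ± 0.0981). Sox5 was above 1 with Bcl11b (1.42 ± 0.159), Tle4, Foxp2 and Fezf2 and below 1 with Cux1 (0.729 ± 0.164), Cux2 (0.649 ± 0.109) and Rorb (0.495 ± 0.0712). At 2000 UMIs 23.6% of neurons carried none of the 9 genes, 34.6% carried 1, 25.3% carried 2 and 12.4% carried 3, and the most was 7, in 1 neuron. With a gate of 2 Slc17a7 UMIs the numbers of pairs above, below and on both sides of 1 were again 16, 16 and 4. At 1000 UMIs per neuron they were 16, 14 and 6, and at 4000 UMIs 16, 18 and 2.

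**Figure D1:**
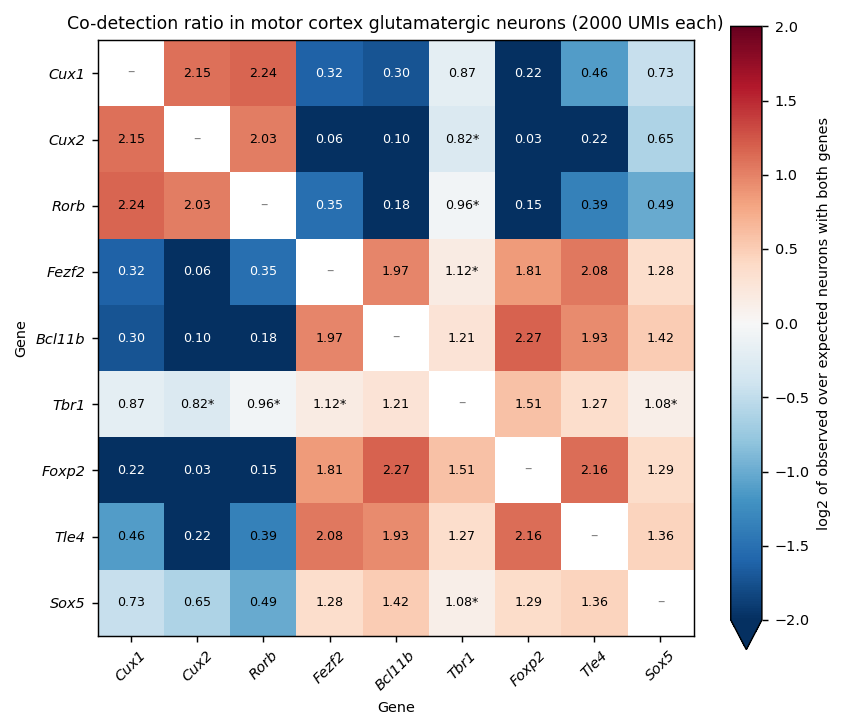
Each square gives, for the pair of genes on its row and column, the mean over 6 motor cortex pools of observed over expected neurons carrying both, at 2000 UMIs per neuron; colour is the log2 of that ratio, and an asterisk marks the 4 pairs that lay on both sides of 1. The block of Cux1, Cux2 and Rorb (2.03 to 2.24) and the block of Fezf2, Bcl11b, Foxp2 and Tle4 (1.81 to 2.27) stand apart from the low squares between them.

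The genes whose counts followed each factor most closely over single neurons fell along the same division. The measure was the mean over 6 pools of the Pearson correlation across the 16306 thinned neurons, among 8556 genes with a UMI in at least 2% of neurons of every pool. Neurons of a pool share their library, so these are descriptions. Camk2n1, an inhibitor of the kinase CaMKII, was the closest gene to Cux1 (mean r 0.25) and to Cux2 (0.28), and next after Kcnab3 to Rorb (0.31). Kcnab3, a potassium channel subunit, was closest to Rorb (0.34, 0.26 to 0.43 over pools). Rorb itself was second for Cux1 (0.22), ahead of Rgs4 (0.21), a regulator of G-protein signalling that was the third for Rorb (0.29). Lamp5 (0.20) and Ptn (0.19) came next for Cux2. Pcp4, a calmodulin-binding protein, was closest to Bcl11b (0.33), Tle4 (0.37), Tbr1 (0.15) and Sox5 (0.087) and second for Fezf2 (0.28) and Foxp2 (0.31). Rprm was closest to Foxp2 (0.38) and second for Bcl11b (0.27), and Tshz2, a marker of near-projecting neurons, was closest to Fezf2 (0.35), followed by Pcp4 and by Etv1 (0.25). Hs3st4 was second for Tle4 (0.26) and the third for Foxp2 (0.26). The genes that complete these sets of 3 were Myl4 for Bcl11b (0.23), 3110035E14Rik (0.15) and Rprm (0.14) for Tbr1, Rprm for Tle4 (0.24), and Bcl11b (0.083) and Ncald (0.080) for Sox5. The correlations of Tbr1 and Sox5 were weak.

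The 16525 gated neurons in glutamatergic neuron-like clusters were divided into sub-clusters without the 9 genes, and these were named, where possible, from other markers. Unnamed sub-clusters are given by their leading genes, with no layer. Among sub-clusters with at least 20 cells in each of the 6 pools, Cux2 was highest in 4. It stood at 192 CPM in layer 4/5 intratelencephalic-like neurons (2434 cells), 187 in an unnamed cluster led by Calb1, Igfn1 and S100a6 (2214 cells), 156 in layer 2/3-like neurons (800 cells) and 86.5 in an unnamed cluster led by Slc30a3, Rspo1 and Thsd7a (1728 cells). In the 6 other named sub-clusters its mean was 0.9 to 6.6 CPM. Rorb differed among these 4. It was at 596 CPM in layer 4/5 intratelencephalic-like and 256 in the cluster led by Slc30a3, but at 26.6 in the cluster led by Calb1 and 5.06 ± 2.53 (SD, n = 6 pools) in layer 2/3-like neurons. Cux1 followed Cux2, with 242, 146, 144 and 72.2 CPM in these 4 sub-clusters and 10.6 to 41.0 CPM in the 6 other named sub-clusters. The small unnamed clusters led by Calb1, Lamp5 and Stum (215 cells) and by Synpr, Oprk1 and Rgs12 (77 cells, with 1 pool of at least 20) held Cux1 at 78.5 and 143 CPM and Cux2 at 66.7 and 83.3 CPM. The values of the Synpr cluster come from that 1 pool. All its 77 cells, at a median of 10210 UMIs, held 115 Cux2 UMIs, so its place in the order is not settled.

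Fezf2 and Bcl11b were both present in near-projecting-like neurons (982 cells; 371 and 362 CPM), layer 5 pyramidal tract-like neurons (63 cells; 232 and 383 CPM), layer 6 corticothalamic-like neurons (110 and 242 CPM) and layer 6b-like neurons (94.6 and 145 CPM). They parted in intratelencephalic-like sub-clusters. Layer 6 intratelencephalic-like neurons (2092 cells) held Bcl11b at 112 CPM with Fezf2 at 8.2, and layer 5 intratelencephalic-like neurons (467 cells) held Fezf2 at 70.8 CPM with Bcl11b at 7.9. The cluster led by Slc30a3 held Fezf2 at 34.2 ± 5.92 CPM with Bcl11b at 1.91 ± 1.38. Among named sub-clusters Foxp2 was highest in layer 6 corticothalamic-like neurons (4634 cells; 217 CPM), with 42.6 CPM in layer 6b-like and 42.0 in near-projecting-like neurons and at most 9.3 CPM in the other 5. An unnamed cluster of 14 cells led by the microglial genes C1qa, C1qb and Cx3cr1 held 286 CPM. Tle4 was high in 3 deep sub-clusters, layer 6b-like (805 cells; 323 CPM), near-projecting-like (304) and corticothalamic-like (277), and at 14.8 CPM in layer 6 intratelencephalic-like neurons. Tbr1 was present in each of these sub-clusters, from 29.2 CPM in pyramidal tract-like and 54.4 in layer 2/3-like to 250 in corticothalamic-like neurons, with 150 CPM in layer 4/5 intratelencephalic-like neurons beside their Rorb. Among the same sub-clusters Sox5 ranged from 24.9 CPM there to 145 in near-projecting-like neurons. Values of the pyramidal tract-like neurons come from 63 cells summed over all pools and have no SD.

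**Figure D2:**
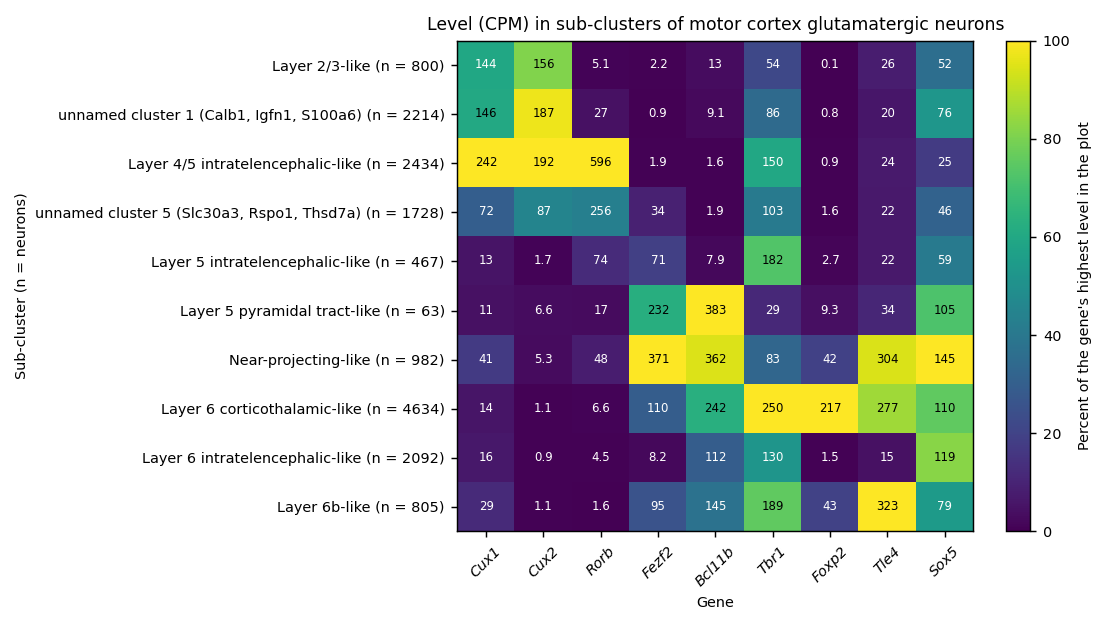
Rows are sub-clusters of motor cortex glutamatergic neurons with their number of cells, columns are genes, each square prints the mean CPM over pools (CPM of all cells summed for pyramidal tract-like), and colour gives the percent of the gene's highest level in the plot, where unnamed clusters of 14 to 215 cells are not drawn. Among the rows drawn, Cux1 and Cux2 are brightest in the top 4 and Rorb in the layer 4/5 intratelencephalic-like row (596 CPM), with Rorb dark in the layer 2/3-like row (5.06 CPM).

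To ask whether the factors changed with training, UMIs of the gated neurons were summed per pool and tested with edgeR over the 6 motor cortex pools, with barcode class as a covariate. In such sums, fewer neurons of a type and less RNA per neuron cannot be told apart. Cux1, Cux2, Rorb, Tbr1 and Sox5 had their lowest group means in late pools, but no factor passed the test. For Tbr1 (147.9 CPM in late, 149 in control) and Sox5 (79.4 and 81.4 CPM) late and control means were close. Rorb stood at 98.8 and 107 CPM in the control pools, 86.3 and 93.7 in the early pools and 74.7 and 82.2 in the late pools (replicates 1 and 2). The 3 groups did not overlap. How many of all genes tested separate likewise was not counted, here or for the orders of Cux1 and Cux2 below. Cux1 stood at 69.7 and 80.5 CPM in control, 72.6 and 72.3 in early and 57.9 and 62.8 in late pools, and the late pools lay below the other 4. Cux2 stood at 101 and 62.6 CPM in control, 54.6 and 67.4 in early and 55.0 and 45.4 in late pools. Late lay below control but overlapped early, and the 2 control pools differed from each other most.

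The fitted log2 changes of late against control were -0.65 for Cux2 (SE 0.156, unadjusted p 0.00544), -0.37 for Rorb (SE 0.108, p 0.0134) and -0.29 for Cux1 (SE 0.107, p 0.0332), and each had an edgeR quasi-likelihood p of 0.939 after Benjamini-Hochberg adjustment. Across all 18084 genes tested edgeR called 0 (0%) in late against control, with 669 at an unadjusted p under 0.05 and 0 by DESeq2. It called 0 (0%) in early against control, with 392 at an unadjusted p under 0.05 and 4 by DESeq2, and 0 (0%) in late against early, with 235 and 0. Counts were also simulated with no class or batch difference and with 200 changed genes, none of them low in mean level. From these, edgeR recovered 81.5% of genes given a log2 change of 1 in late against control. The changes above were smaller than that, and a change in a single gene was not simulated. Without a filter on low counts, Cux2 in late against control was called (log2 change -0.66, edgeR adjusted p 0.00145). It was then 1 of 221 genes called among 30919 tested (0.715%).

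Ratios between single pools of a barcode class use the same pools as the fit and are no separate evidence. Late and control replicate 1 share class and batch label, and the log2 ratio of their CPM was -0.87 for Cux2, -0.40 for Rorb and -0.27 for Cux1. It was -0.35 for Sox5, -0.18 for Foxp2 and Bcl11b, -0.16 for Tle4, 0.14 for Tbr1 and 0.63 for Fezf2. Late and control replicate 2 share the class but not the batch label. Their ratios were -0.46 for Cux2, -0.38 for Rorb, -0.36 for Cux1 and -0.14 for Tbr1. For Fezf2, Bcl11b, Sox5, Foxp2 and Tle4 they were 0.09 to 0.42. Any part of class or batch was not tested. Each rests on 1 pool against 1. Within sub-clusters Cux2 was lower in both late pools than in all control and early pools in each of the 4 ranked highest above. In layer 2/3-like neurons it was at 200 and 166 CPM in control, 148 and 163 in early and 119 and 138 in late pools. In layer 4/5 intratelencephalic-like neurons it was at 249 and 182, 209 and 186, and 156 and 172 CPM. In the cluster led by Calb1 it was at 230 and 201, 186 and 191, and 158 and 157 CPM, and in the cluster led by Slc30a3 at 116 and 82.7, 83.8 and 99.9, and 64.7 and 72.4 CPM. These sub-cluster values were examined after the sums and were not tested. The sub-clusters come from the same 6 pools, so they are not separate repeats. How many of all genes keep this order was not counted. Cux1 did not keep it in layer 2/3-like neurons. There late replicate 2 held 133 CPM contralaterally and 182 ipsilaterally, against 123 and 131 in early replicate 2. Rorb in layer 4/5 intratelencephalic-like neurons was low in late replicate 1 alone, at 384 CPM against 606 to 674 in the other 5 pools.

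The shares of the sub-clusters also varied between pools. Layer 2/3-like neurons made up 7.39% and 4.12% of the neurons in control, 3.39% and 4.596% in early and 4.34% and 5.32% in late pools. The cluster led by Calb1 made up 17.3% and 13.2%, 14.7% and 15.9%, and 11.5% and 9.49%, and was smallest in the late pools. Layer 4/5 intratelencephalic-like neurons made up 16.4% and 14.8%, 13.7% and 13.4%, and 19.5% and 11.5%. The part of these shares in the summed values was not tested.

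Of the deep-layer factors, Fezf2 stood at 45.9 and 65.3 CPM in control, 78.4 and 56.9 in early and 70.8 and 69.5 in late pools, a log2 change of late against control of 0.38 (SE 0.202, edgeR adjusted p 0.939). That value was 0.11 without control replicate 1 and 0.66 without late replicate 2. The other 5 changed between late and control by fitted log2 values of -0.07 (Sox5) to 0.16 (Tle4), with edgeR adjusted p of 0.945 to 0.997. All 5 were lower in the 2 class A pools than in the 4 class B pools, and the cause was not tested. In motor cortex the class A pools are also the only pools of their batch label, so class and batch cannot be told apart. How many of all genes were ordered this way was not counted. Tle4 stood at 93.1 and 83.3 CPM in the 2 class A pools (control and late replicate 1) and at 131 to 175 CPM in the 4 class B pools, without overlap. Bcl11b (91.0 and 80.5 against 123 to 144 CPM), Sox5 (68.1 and 53.6 against 94.2 to 105 CPM), Tbr1 (128 and 141 against 155 to 170 CPM) and Foxp2 (61.5 and 54.3 against 63.3 to 79.7 CPM) were ordered the same way. Between early and control the 9 fitted log2 changes ran from -0.24 (Rorb) to 0.20 (Fezf2), all with an edgeR adjusted p of 1.00. Between late and early Cux2 had the lowest value, -0.52 (SE 0.174, unadjusted p 0.0228, edgeR adjusted p 1), and the others ran from -0.18 (Cux1) to 0.24 (Foxp2). The median log2 change of the 9 was -0.11 for early and -0.0077 for late against control, beside 0.0023 and -0.010 over all genes tested. Of 40 other transcription factors and cofactors of projection neurons, 0 were called in any of these comparisons.

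**Figure D3:**
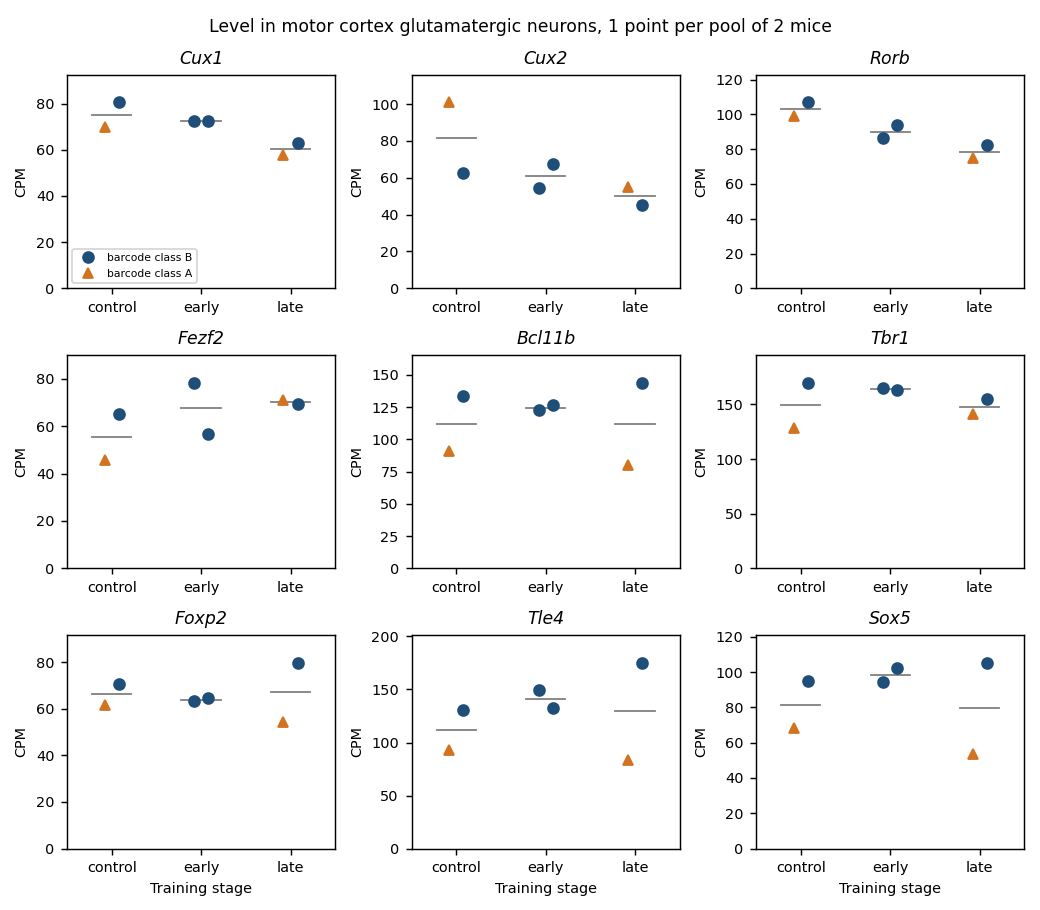
Each panel plots the CPM of 1 gene in the gated neurons of each motor cortex pool against training stage, on an axis from 0; circles are pools of barcode class B, triangles of class A, and grey lines the mean of 2 pools. The Rorb points step down from control to early to late without overlap, and the triangles lie below the circles for Bcl11b, Tbr1, Foxp2, Tle4 and Sox5. How many of all genes are ordered in either way was not counted.

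Because the task used 1 forelimb, the hemisphere contralateral to it was compared with the ipsilateral one in the 4 pools of trained mice, each pool serving as its own block. The difference of Rorb was known from earlier results of these data when the members were chosen, so it is no independent evidence. Rorb was the member with the largest difference. It stood at 93.2 CPM contralaterally and 79.8 ipsilaterally in early replicate 1, 102 and 84.7 in early replicate 2, 78.7 and 70.4 in late replicate 1, and 87.2 and 76.9 in late replicate 2. It was therefore higher contralaterally in 4 of 4 pools, by 0.16 to 0.27 on the log2 scale, while the ranges of the 2 sides overlapped. The share of neurons with a Rorb UMI at 2000 UMIs was also higher in 4 of 4, by 1.46 to 3.00 percentage points. In the control pools, which have no trained side, left and right differed by 0.51 (128 against 90.3 CPM, the left one from 229 neurons) and by -0.20 (99.98 against 115 CPM). The fitted log2 difference was 0.21 (SE 0.0419, unadjusted p 8.79e-05), and its edgeR adjusted p was 0.0731, so Rorb was not called.

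Across all genes edgeR called 15 of 16626 (0.0902%), 8 higher (0.0481%) and 7 lower (0.0421%) contralaterally, with 860 at an unadjusted p under 0.05 and 3 by DESeq2, and 0 of the 9 members were among them. The Rorb call turned on the cells and genes admitted. Its edgeR adjusted p was 0.0416 with stricter cell filters, 0.0420 with a gate of 2 Slc17a7 UMIs, 0.0417 with doublets kept, 0.0282 for gated neurons in named clusters and 0.00464 without a filter on low counts. It was 0.0739 with RLE factors, 0.0906 to 0.385 with 1 pool left out, and 1.00 by DESeq2 or without the block. The next largest differences were lower contralaterally in 4 of 4 pools: Tle4 by -0.15 (SE 0.0418, unadjusted p 0.00215, edgeR adjusted p 0.436), Bcl11b by -0.12 (SE 0.0393, p 0.00732, adjusted 0.662) and Foxp2 by -0.12 (SE 0.0532, p 0.0396, adjusted 0.938). The share of neurons with a UMI at 2000 UMIs was lower contralaterally in 4 of 4 pools for Bcl11b but in 3 of 4 for Tle4 and Foxp2. The Foxp2 value was -0.051 without early replicate 1 and -0.17 without late replicate 2. Tbr1 was higher by 0.04 in 4 of 4, and Cux1, Cux2, Fezf2 and Sox5 had mixed signs. Bcl11b and Foxp2 were also lower on the left than on the right in both control pools (log2 ratio -0.34 to -0.16 for each). Of the 40 other factors 1 was called, Tshz2, which marks near-projecting neurons, at -0.48 (SE 0.0573, edgeR adjusted p 6.72e-04).

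Sub-cluster shares also differed between the hemispheres. Near-projecting-like neurons made up 5.82% ± 1.53 of contralateral and 7.39% ± 1.86 of ipsilateral neurons (SD, n = 4 libraries each) and were fewer contralaterally in 4 of 4 pools, as were layer 6b-like neurons (4.57% ± 1.77 and 5.72% ± 1.45). Layer 4/5 intratelencephalic-like neurons made up 15.0% ± 3.83 and 14.0% ± 3.08 and were more frequent contralaterally in 3 of 4. Layer 5 pyramidal tract-like neurons, of which each of these libraries held 1 to 8, made up 0.407% ± 0.133 and 0.267% ± 0.174 and were more frequent contralaterally in 4 of 4. Within layer 4/5 intratelencephalic-like neurons Rorb was at 573 ± 125 CPM contralaterally and 569 ± 132 ipsilaterally, and in the cluster led by Slc30a3 at 266 ± 68.0 and 246 ± 85.0. By pool, Rorb in the layer 4/5 neurons had mixed signs (669 against 679, 615 against 628, 389 against 379, and 620 against 590 CPM). Within layer 5 intratelencephalic-like neurons it was at 77.1 ± 18.3 and 63.7 ± 1.69, higher contralaterally in 3 of 4 pools. Astrocytes also contain Rorb (below), and the summed astrocyte markers in the gated neurons were lower contralaterally in 3 of 4 pools (923 against 1021, 894 against 970, 785 against 758, and 1157 against 1186 CPM). The summed endothelial markers (1 of 6 at 10 CPM or more) were higher contralaterally in 4 of 4 pools (156 against 78.1, 31.7 against 22.5, 39.8 against 36, and 29.7 against 15.1 CPM), and endothelial-like cells of motor cortex held Rorb at 11.4 ± 21.9 CPM (SD, n = 6 pools). Microglial markers were higher in 3 of 4 and those of oligodendrocyte precursors in 2 of 4. The part of the sub-cluster shares and of these other cells in the difference was not tested. Whether the hemispheres differed more in late than in early pools was tested as an interaction. edgeR called 1 of 16626 genes (0.00601%) and 0 members, with 776 genes at an unadjusted p under 0.05 and 0 by DESeq2. The lowest unadjusted p among members was that of Sox5 (log2 0.25, SE 0.0866, p 0.0119, edgeR adjusted p 0.986).

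**Figure D4:**
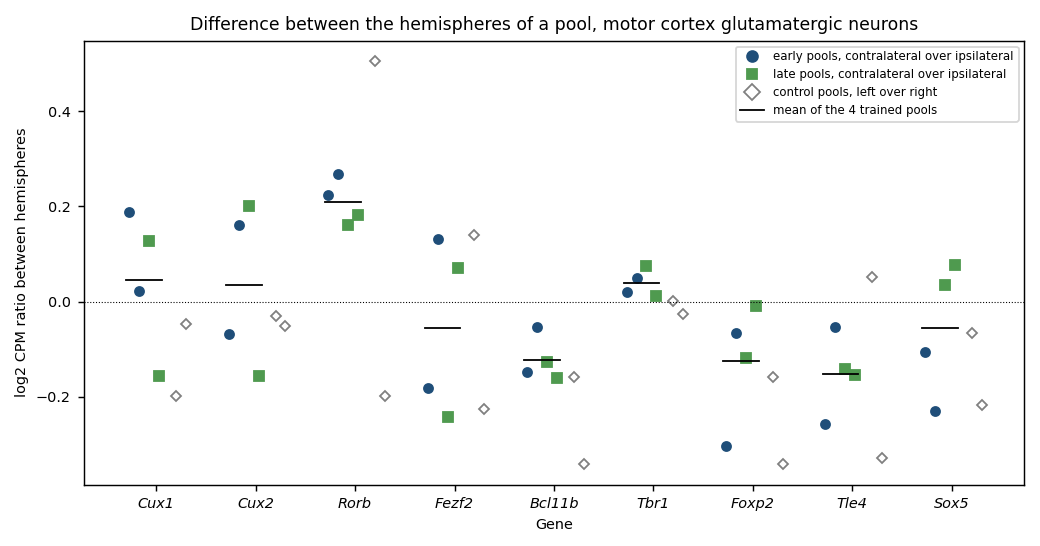
The log2 ratio of CPM between the hemispheres of a pool is plotted for each gene: filled circles (early) and squares (late) give contralateral over ipsilateral, black lines their mean, and open diamonds left over right in control pools. All 4 filled points of Rorb lie between 0.16 and 0.27, while its 2 control points lie at 0.51 and -0.20.

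Glutamatergic neurons were next set against GABAergic neurons of the same motor cortex pools (a UMI of Gad1 or Gad2 and none of Slc17a7; 5465 cells, of which 74.8% lay in GABAergic interneuron-like and 15.6% in oligodendrocyte precursor-like clusters). Here 8 of the 9 factors were higher in glutamatergic neurons and Bcl11b was lower. edgeR called 12562 of 18374 genes (68.4%; 33% higher and 35.3% lower), so calls were common. Tbr1 stood at 128 to 170 CPM (median 159) in glutamatergic and 1.57 to 3.20 CPM (median 2.32) in GABAergic neurons, a log2 difference of 6.17 (SE 0.102, edgeR adjusted p 1.11e-18). Fezf2 differed by 5.78 (SE 0.141; 64.4 ± 11.5 against 1.41 ± 0.692 CPM, SD, n = 6), Foxp2 by 5.30 (SE 0.109), Rorb by 4.01 (SE 0.0843) and Tle4 by 2.76 (SE 0.0752). With gated cells in named clusters alone, the GABAergic level was 0.604 ± 0.478 CPM for Foxp2 (1.69 in the whole gate) and 2.20 ± 0.583 CPM for Rorb (5.84 in the whole gate), and their log2 differences were 6.83 and 5.40. With doublets kept, Foxp2 had 4.28. Tbr1 ran from 6.03 to 6.32 over all alternatives, so which of Tbr1 and Foxp2 differed more depended on the cells admitted. The Cux genes differed by less: Cux1 stood at 69.3 ± 7.98 against 38.5 ± 7.52 CPM (0.96, SE 0.0674) and Cux2 at 64.3 ± 19.4 against 37.0 ± 12.3 CPM (0.93, SE 0.0722), and the Cux2 ranges overlapped. Sox5 stood at 86.3 ± 20.7 against 68.8 ± 19.9 CPM (0.46, SE 0.0523, edgeR adjusted p 4.17e-07), with overlapping ranges. Without pairing the pools, Sox5 was no longer called (0.43, edgeR adjusted p 0.0735). Bcl11b stood at 80.5 to 144 CPM (median 125) in glutamatergic and 110 to 203 CPM (median 175) in GABAergic neurons, a difference of -0.43 (SE 0.0600, edgeR adjusted p 5.25e-06). In GABAergic interneuron-like clusters alone, gated cells held Sox5 at 57.9 ± 15.7 CPM and Bcl11b at 188 ± 35.4 CPM. Cux1 was there at 32.5 ± 5.78 CPM and Cux2 at 37.3 ± 11.65 CPM. Of the 40 other factors, 25 were higher, 12 lower and 3 not called.

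Outside neurons, in both regions, Rorb was most abundant in astrocyte-like cells. In motor cortex they held 453 ± 103 CPM (307 to 605 over 6 pools), above every value in glutamatergic neuron-like cells as a whole (91.1 ± 11.0), although below the mean of the layer 4/5 intratelencephalic-like neurons. A Rorb UMI was found in 55.0% of astrocyte-like cells at a median of 1695 UMIs and in 0.476% of microglia-like cells at 1820. Fezf2 was found there too, at 43.6 ± 22.2 CPM and in 7.65% of cells, against 1.42 CPM and 0.272% in microglia-like cells, and its range overlapped that of glutamatergic neuron-like cells (20.8 to 82.3 against 46.4 to 80.7 CPM). The range of Tle4 in astrocyte-like cells (132 ± 35.1 CPM) overlapped that in glutamatergic neuron-like cells (129 ± 34.7). Sox5 was at 218 ± 62.4 CPM in oligodendrocyte precursor-like cells (134 to 261 CPM over pools), above every pool of glutamatergic neuron-like cells (54.5 to 105 CPM). Cux1 was widespread, with 114 ± 28.7 CPM in microglia-like and 101 ± 23.3 in oligodendrocyte precursor-like cells. Of the 12 named cortical classes, the glutamatergic class had the highest mean for 4 of the 9 genes (Cux2, Fezf2, Tbr1 and Foxp2). Of these only Foxp2 did not overlap the class below. For Tbr1 (130 to 171 CPM over pools) the class below was neuroblast- or progenitor-like (218 cells, at most 138 CPM in a pool). The remaining classes held at most 61.9 CPM of Tbr1 in any pool. How many of all genes peak or stand apart in the glutamatergic class was not counted. These class levels are descriptions and were not tested.

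In the dorsal striatum the repertoire was different. Spiny projection neuron-like cells (21626 cells, median 4294 UMIs) held Bcl11b, Foxp2, Tle4 and Cux1, and little of the other 5. Bcl11b stood at 508 and 677 CPM in control, 854 and 746 in early and 410 and 667 in late pools (mean 644 ± 161), and was found in 84.9% of cells, against 16.9 CPM and 2.19% in microglia-like cells at a median of 1821 UMIs. Foxp2 stood at 285 ± 37.6 CPM (51.4% of cells, against 9.44 CPM and 1.03%) and Tle4 at 176 ± 58.6 CPM (49.7%, against 69.4 CPM and 12.7%). The class A pools were the 2 lowest for all 3. They were for Cux1 too, at 49.4 and 51.2 CPM against 68.2 to 82.0 in class B. Bcl11b and Foxp2 did not overlap the class below, which was glutamatergic neuron-like for Bcl11b and neuroblast- or progenitor-like for Foxp2. How many of all genes were ordered in either way was not counted. Cux1 was at 66.6 ± 13.5 CPM (26.9% of cells), below the 104 ± 37.8 CPM of microglia-like cells (18.3%) in the mean but within their range. By mean, spiny cells ranked 7 among the 14 striatal classes for Cux1. Astrocyte-like (78.5 CPM), pericyte-like (69.3 CPM) and GABAergic interneuron-like cells (61.4 CPM) were near the same level, so Cux1 was not particular to spiny cells. Cux2 was at 3.16 CPM, and Rorb, Tbr1, Sox5 and Fezf2 at 0.911, 0.586, 0.381 and 0.145 CPM, all under 1 CPM. Astrocyte-like cells of the striatum again held Rorb (371 ± 166 CPM, 47.7% of cells), Fezf2 (42.7 ± 12.99) and Tle4 (110 ± 49.5), and oligodendrocyte precursor-like cells Sox5 (237 ± 73.3). Striatal neuroblast- or progenitor-like cells (9242) held Foxp2 at 87.2 ± 53.9 and Bcl11b at 111 CPM. The dissection also held 209 glutamatergic neuron-like cells in 5 pools with at least 20 such cells. They carried Tbr1 (200 ± 31.2 CPM), Bcl11b (169 ± 62.2) and Fezf2 (49.9 ± 15.4) but little Cux2 (10.7) or Rorb (7.79), and 230 striatal cells in all passed the cortical gate.

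**Figure D5:**
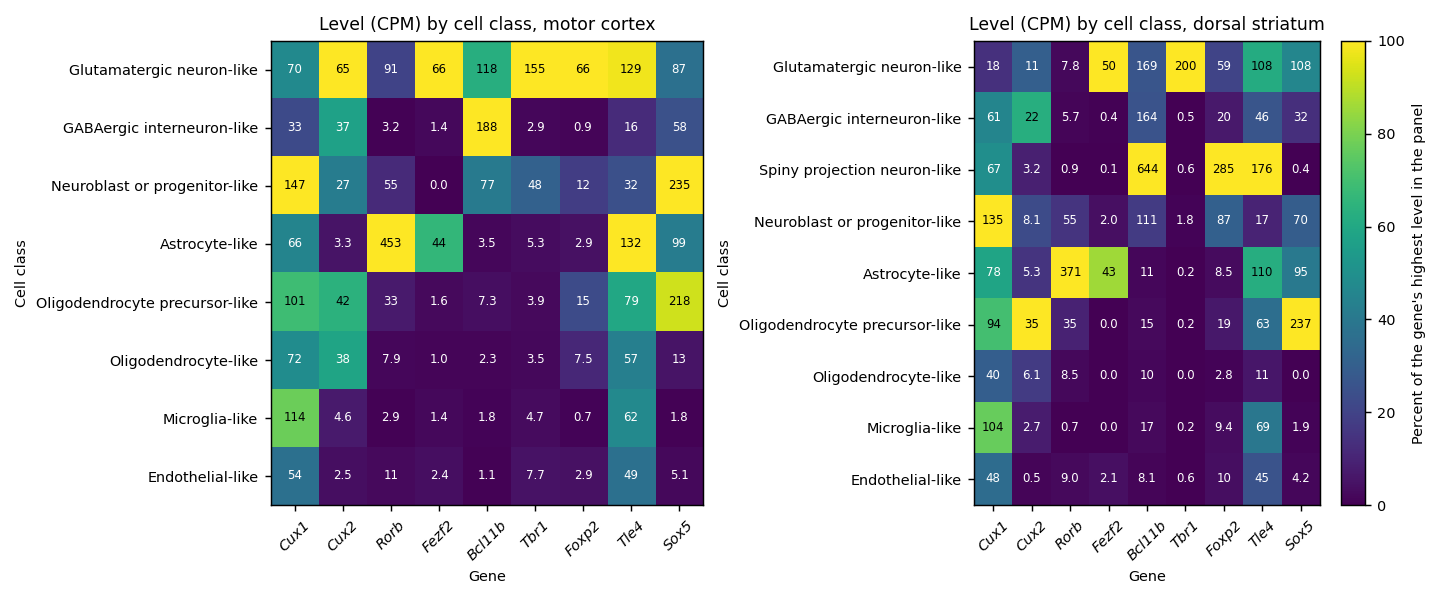
The left panel shows motor cortex and the right panel dorsal striatum; rows are cell classes, columns genes, each square prints the mean CPM over pools, and colour gives the percent of the gene's highest level in the panel. Bcl11b, Foxp2 and Tle4 peak in spiny projection neuron-like cells of the striatum (644, 285 and 176 CPM), and Rorb in astrocyte-like cells of both regions (453 and 371 CPM).

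Between the 2 kinds of spiny neuron Foxp2 was the factor that differed most. The 7586 spiny cells with a UMI of Drd1, the dopamine receptor of the direct pathway, and none of Drd2 or Adora2a (D1) were compared with the 10094 that had a UMI of Drd2 or Adora2a, receptors of the indirect pathway, and none of Drd1 (D2), within pools. Foxp2 stood at 277 to 462 CPM (median 415) in D1 and 108 to 148 CPM (median 137) in D2 cells, without overlap. It was higher in D1 in 6 of 6 pools, with a log2 difference of 1.52 (SE 0.0338, edgeR adjusted p 2.13e-40). edgeR called 4171 of 15674 genes (26.6%; 11.5% higher in D1 and 15.1% lower). Tle4 was lower in D1 in 6 of 6 pools, at 92.9 to 224 CPM (median 183) against 104 to 269 CPM (median 215), a difference of -0.27 (SE 0.0269, edgeR adjusted p 2.13e-12). The ranges of the groups overlapped because pools differed, and without pairing them Tle4 was not called (-0.27). Cux1 was called at -0.14 (SE 0.0407, edgeR adjusted p 0.00776), a call lost with DESeq2, without pairing and without early replicate 2 (-0.10, adjusted p 0.108). Bcl11b did not pass the test (658 ± 165 against 644 ± 162 CPM; -0.02, SE 0.0199, edgeR adjusted p 0.530), nor did Cux2 (0.43, SE 0.206, adjusted 0.123) or Rorb (-0.03, SE 0.330). Fezf2, Tbr1 and Sox5 were under the filter on low counts, so 6 of the 9 were tested. Of the 40 other factors 32 were tested, 8 higher in D1 and 13 lower, among them Foxp1, a forkhead relative of Foxp2, at -0.47 (SE 0.0180, edgeR adjusted p 2.97e-29).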

How the data were processed

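The authors deposited filtered gene-by-cell matrices of raw UMI counts, per the file headers, made with Cell Ranger 3.1.0 on GRCm38 (mm10), per the submitters' processing notes; the header names software version 3.0.2, and the 10x kit (v2 or v3) is not given per library. Of the 54235 features, 54165 matched GENCODE M21 by ID. The floor for a cell was 500 genes and 1000 UMIs, and its mitochondrial share could not pass 20%, and Scrublet's presumed doublets (0.8% per 1000 barcodes, on scanpy 1.11.5) were removed. Cells were clustered with leidenalg 0.10.2 (2000 variable genes, 40 components, 20 neighbours, resolution 1.5, and 1.0 for glutamatergic sub-clusters), leaving the 9 genes out. Clusters were named from marker lists; the naming rule was settled after clusters were seen.

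UMIs were summed per pool (per library for hemispheres) and tested with edgeR 4.0.16 (quasi-likelihood, TMM factors, filterByExpr, Benjamini-Hochberg adjustment over all genes tested, threshold 0.05) in R 4.3.3, with DESeq2 1.42.0 as an alternative. Stage fits used all 6 motor cortex pools with barcode class as a covariate; comparisons between hemispheres or gates had the pool as a block, since both sides came from the same mice. The test was tried on simulated counts with 200 changed genes. Nothing in the labels says that replicate numbers, given in accession order, pair pools. Named genes were all 9, the 3 genes most like each in pattern, and those called among 40 other factors. The members and lists were chosen with earlier results of these data known, among them the difference of Rorb between hemispheres, which is therefore no independent evidence. Alternatives tried were DESeq2, RLE factors, testing without a low-count filter, stricter cell filters, a stricter gate, doublets kept, another block, other thinning depths and each pool left out.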

Additional observations from a re-analysis of the deposited data

Results flagged for a closer look

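Of 84 groups of pool values examined, 2 held a pool that stood far from the others, where chance gives about 1 in 20. The co-detection ratio of Tbr1 and Tle4 was 1.464 in motor cortex control replicate 1, while the other 5 pools lay between 1.169 and 1.27. The co-detection ratio of Tle4 and Sox5 was 1.575 in motor cortex late replicate 1, while the other 5 lay between 1.269 and 1.372. Both pools belong to barcode class A, and both ratios were above 1 in all 6 pools.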

How the results depend on the processing

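The sign and the side of the threshold of the 9 genes' log2 changes were the same in 445 of 479 values under other settings and in 280 of 324 with 1 pool left out. Co-detection ratios moved by less than the spread between pools in 135 of 144 values and class levels in 215 of 225. With gated neurons in named clusters (chosen after seeing the data), 16 pairs were above 1 in all pools, 16 below and 4 mixed.

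Without a filter on low counts, edgeR tested 30919 genes between stages. It called 130 (0.42%) in early against control, 221 (0.715%) in late against control (1 of the 9, Cux2) and 130 (0.42%) in late against early. Of 29877 genes it called 96 (0.321%) between hemispheres (1 of the 9, Rorb) and 66 (0.221%) in the interaction. DESeq2 called 4 in early against control, 3 between hemispheres, 0 in the interaction and 2556 between D1 and D2 cells. Between hemispheres 27 genes (0.167%) were called with the stricter gate, 25 (0.148%) with doublets kept, 16 (0.0972%) with stricter cell filters and 9 (0.056%) in named clusters. Rorb, 1 of the 9 members, was among them in each of these. The interaction gave 14 with stricter filters, 7 with the stricter gate, 2 with doublets kept and 0 in named clusters. With 1 pool left out, calls ranged from 0 to 8 in early against control (8 without early replicate 2), 0 to 5 in late against control (5 without late replicate 1, 2 without control replicate 1, 1 without control replicate 2), 0 to 4 in late against early (4 without early replicate 2), 2 to 28 between hemispheres (2 without early replicate 1, 28 without late replicate 1) and 23 to 40 in the interaction.

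With the replicate number as a block, 0 genes were called in each stage comparison (553, 248 and 279 at an unadjusted p under 0.05). The comparisons between hemispheres and between gates had the pool, not the replicate number, as their block. Without it 0 genes were called between hemispheres and 7868 of 16263 (48.4%) between glutamatergic and GABAergic neurons. Between D1 and D2 neurons 540 of 14151 (3.82%) were called, with 1 of the 9, Foxp2, among them. Keeping doublets was not run for D1 and D2 cells, because doublets were not clustered.

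Signs turned as follows, and the cause was not tested. Without the barcode class term, and with the replicate block, early against control became 0.13 and 0.16 for Bcl11b, 0.31 and 0.36 for Tle4 and 0.25 and 0.27 for Sox5, and late against early -0.11 and -0.16 for Bcl11b and -0.091 and -0.17 for Tle4. Bcl11b in late against control, -0.0077 as reported, became 0.0081 (RLE), 0.0085 (DESeq2), 0.00023 (stricter filters), 0.020 (no class term) and 0.00049 (replicate block). In late against early, Tbr1 became 0.00071 (RLE) and 0.00065 (DESeq2) and Sox5 0.0021 (RLE), 0.0021 (DESeq2) and 0.017 (doublets kept). In the interaction Cux2 became -0.057 (stricter gate) and -0.0047 (named clusters) and Bcl11b 0.012 (doublets kept). Rorb between D1 and D2 became 0.058 with DESeq2.

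Leaving out 1 pool moved early against control from -0.44 to 0.0067 for Cux2, -0.069 to 0.61 for Fezf2, -0.43 to 0.065 for Sox5, -0.037 to 0.24 for Tbr1 and -0.46 to 0.12 for Tle4. It moved late against control from -0.16 to 0.13 for Bcl11b, -0.16 to 0.19 for Foxp2, -0.33 to 0.17 for Sox5, -0.12 to 0.17 for Tbr1 and -0.14 to 0.44 for Tle4. It moved late against early from -0.060 to 0.22 for Bcl11b, -0.039 to 0.59 for Fezf2, -0.016 to 0.32 for Foxp2, -0.38 to 0.11 for Sox5, -0.084 to 0.21 for Tbr1 and -0.25 to 0.32 for Tle4. Between hemispheres the ranges were -0.015 to 0.096 for Cux2 and -0.11 to 0.0061 for Sox5, and in the interaction -0.074 to 0.029 for Bcl11b, -0.24 to 0.023 for Cux1, -0.16 to 0.17 for Cux2, -0.20 to 0.16 for Fezf2 and -0.076 to 0.14 for Tle4. Rorb between D1 and D2 ran from -0.17 to 0.22. Cux2 in late against control stayed negative, from -0.86 to -0.45. In late against early it was -0.82 without late replicate 2 and -0.37 without early replicate 2, and between D1 and D2 cells 0.24 without early replicate 2 and 0.53 without control replicate 2.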

Other observations

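Neuroblast- or progenitor-like cells carried several of the 9 genes. In motor cortex (218 cells in 5 pools with at least 20 such cells) Sox5 stood at 235 ± 175 CPM (SD, n = 5) and Cux1 at 147 ± 49.2. In the striatum (9242 cells) Cux1 stood at 135 ± 26.3 CPM, Rorb at 55.3 ± 18.9 and Sox5 at 70.4 ± 26.3 (n = 6). Foxp2 ranged there from 18.8 to 172 CPM over pools.

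Other factors differed between D1 and D2 spiny cells beside Foxp2. Of the 8 called higher in D1, Tle3 (log2 1.36), Nr2f1 (1.35), Nfix (1.27), Nfib (1.05) and Pou3f2 (0.97) had the largest differences. Of the 13 called lower, Pou3f1 (-0.74), Zfp703 (-0.73), Bcl6 (-0.64) and Sox4 (-0.59) did.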
